A study of Mus musculus with 4 samples.

Results

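Transcripts of 47 lysosomal hydrolases, their helper proteins and lysosomal membrane proteins were followed in mouse bone marrow-derived macrophages (BMDMs). The members are listed genes of 7 classes, namely 13 cathepsins and other peptidases, 12 glycosidases, 4 sulfatases, 5 lipid hydrolases, 2 acid phosphatases, 3 activators and carriers, and 8 membrane proteins. Each was represented by the brightest of its probes, out of 23659 genes with a symbol on the array, and all 47 had a probe. All BMDMs came from 10-week-old C57BL/6J mice, were differentiated for 6 days with L929 supernatant, a source of M-CSF, and were then stimulated for 2 days. Each of 4 such cultures gave RNA for 1 Agilent 1-colour array. Wild-type cells received IFN-γ at 20 ng per ml with LPS at 100 ng per ml (M1), IL-4 alone at 50 ng per ml (M2), or that IL-4 dose combined with 250 nM Torin1 (Torin1-treated). Torin1 inhibits the kinase mTOR. Lamtor1-deficient BMDMs, whose genotype the labels give as p18 (2400001E08Rik) -/-, received IL-4 alone. The methods describe these mice as Lamtor1 flox/flox with a heterozygous LysM-Cre, in which the recombinase is driven by the lysozyme M gene of myeloid cells, and name flox/flox littermates as controls, while the labels call the other 3 cultures wild type.

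The arrays share a slide and a scan. Since each condition has a single array, no test was possible and differences between conditions have no replicate check. The processed signal, a spot intensity after background subtraction, was divided by the 75th percentile of its array (593 in M2, 534 after Lamtor1 loss, 470.3 after Torin1 and 285 in M1), and is then called the normalized signal. A log2 ratio compares the normalized signal of the same probe with that on the wild-type M2 array, and a gene was counted as higher or lower where this ratio was 2-fold or more. The spread of repeated spots gave a technical SD of the log2 ratio of 0.09 for Lamtor1 loss, 0.09 for Torin1 and 0.10 for M1, for probes well above background, and leaves out how cultures vary. Lamtor1 itself, listed as 2400001E08Rik, had a processed signal of 39460 in M2 and 833 in Lamtor1-deficient BMDMs, which was 42.6-fold lower after scaling. All 7 macrophage markers were well above background on every array, with a summed normalized signal between 346 (M1) and 682 (M2). In bulk RNA, fewer cells of a type and less RNA per cell cannot be told apart.

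Lysosomes degrade proteins, glycans, lipids and phosphate esters with acid hydrolases, most of which are tagged with mannose 6-phosphate in the Golgi and delivered by receptors. Cathepsins cleave proteins and process antigens, glycosidases and sulfatases take sugar chains apart in a fixed order, and the membrane proteins protect the limiting membrane or carry products and ions across it. In macrophages this compartment digests phagocytosed cells and microbes. Lamtor1 anchors the Ragulator complex, a platform for mTORC1, on the lysosomal surface. The transcription factors TFEB, TFE3 and MITF, which mTORC1 phosphorylates and holds in the cytoplasm, bind a short DNA element in the promoters of many lysosomal genes, the CLEAR element, whose centre is the E-box CACGTG. IL-4 acts through STAT6, which binds paired TTC and GAA letters a few bases apart.

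Of the 47 members, 43 had at least 1 promoter window in RefSeq (GRCm38.p6, 250 bases before to 50 after the start of transcription), and Ctsb, Ctse, Ctsh and Asah1 had none. The motif CACGTG, which reads the same on both strands, stood in a window of 14 of these 43 members (32.6%), while 2187 of all 27025 genes with a window (8.09%) held it. The longer form TCACGTGA, which contains it, was found in 5 members and in 1.12% of all genes, and the full CLEAR palindrome, which adds a G before and a C after that form, in 1 member, Cln3, and in 0.37% of all genes. The STAT6-type motif, TTC and GAA with NNNN between them and the same on both strands, was found in 3 members (6.98%), Acp5, Cln3 and Gm2a, and in 8.01% of all genes. A match describes the letters only. The stretches below, cut from the windows around the motif, are those of the 5 motif-bearing members that were 2-fold higher after Lamtor1 loss or Torin1, followed by Gla and Sgsh, which hold the motif and were not 2-fold higher in either. Each runs 5′ to 3′ on the strand of its gene, and the capitals mark CACGTG.
Ctsa (chr2:164833721-164833783, plus strand): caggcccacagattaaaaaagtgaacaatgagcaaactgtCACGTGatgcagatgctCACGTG
Gaa (chr11:119267783-119267868, plus strand): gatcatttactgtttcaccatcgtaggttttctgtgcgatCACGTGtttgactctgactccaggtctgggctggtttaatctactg
Naglu (chr11:101069981-101070066, plus strand): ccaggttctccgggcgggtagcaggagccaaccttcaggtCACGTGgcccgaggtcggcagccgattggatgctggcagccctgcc
Mcoln1 (chr8:3500408-3500518, plus strand): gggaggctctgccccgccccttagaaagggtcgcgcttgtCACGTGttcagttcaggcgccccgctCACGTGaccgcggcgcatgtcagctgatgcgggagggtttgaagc
Cln3 (chr7:126583312-126583425, minus strand): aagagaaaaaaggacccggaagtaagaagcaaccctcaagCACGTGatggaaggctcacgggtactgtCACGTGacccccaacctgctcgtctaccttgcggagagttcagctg
Gla (chrX:134601154-134601255, minus strand): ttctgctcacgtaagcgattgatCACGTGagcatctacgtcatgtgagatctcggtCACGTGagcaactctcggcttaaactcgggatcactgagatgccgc
Sgsh (chr11:119355511-119355579, minus strand): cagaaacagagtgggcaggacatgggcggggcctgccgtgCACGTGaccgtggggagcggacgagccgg
Ctsa, in 1 of its 2 windows, held the motif with its first base 12 bases before the start (−12) and again at position 6 after it. Mcoln1 held it at −71 and −45, Gaa at −140, Naglu at −73, and Cln3 at −149 and −121. Lamp1 had the most copies among the members, 4, between −61 and −15. Of the 3 members with the STAT6-type motif, Cln3 was 2-fold higher after Torin1 (log2 ratio 1.24), and Acp5 and Gm2a were lower. Ctsc, Arsb, Ids, Gusb, Manba and Man2b1 were lower there too and held none. A part of this motif in the values was not tested. The stretches of Acp5 and Gm2a are shown next, with the motif in capitals. They were chosen because Acp5 had the lowest log2 ratio of all members after Torin1.
Acp5 (chr9:22130659-22130748, minus strand, 1 of 3 windows): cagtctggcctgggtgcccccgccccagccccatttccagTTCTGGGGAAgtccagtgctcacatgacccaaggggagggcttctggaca
Gm2a (chr11:55097886-55097975, plus strand): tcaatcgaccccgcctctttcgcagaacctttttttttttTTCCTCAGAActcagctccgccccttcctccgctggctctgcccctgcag

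The first comparison asked how loss of Lamtor1 changed the lysosomal transcripts of IL-4-stimulated BMDMs. Of the 47 members, 6 were 2-fold or more higher and 0 were lower, while 8.91% of all genes on the array were higher and 8.73% lower, or 7.87% and 7.79% of the genes well above background on both arrays. The 6 were Ctsa, Gaa, Naglu, Mcoln1, Smpd1 and the dim Ctse. The share past 2-fold in either direction was 12.8%, next to 17.6% of all genes and 15.7% of those well above background. The share that was higher was thus near the background, and none was lower. The median log2 ratio over the members was 0.22, next to 0.04 over all genes, and 36 of the 47 ratios were above 0, as were 63.4% of all genes. After quantile normalization the medians of members and of all genes were both 0.00, and 24 of 47 members were above 0, so the shift of the list as a whole depended on the scaling, while 6 members were past 2-fold under each scaling.

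Ctsa, or cathepsin A, is a carboxypeptidase that also protects beta-galactosidase and neuraminidase in a complex. Its probe (mm9 chr2:164665023-164665082) had a processed signal of 93861 in M2, 307020 in Lamtor1-deficient, 288276 in Torin1-treated and 109037 in M1 BMDMs. The deficient and the Torin1-treated cells had similar signals, both above M1 and M2, and their log2 ratios were 1.86 and 1.95. A second Ctsa probe (mm9 chr2:164666433-164666492), much dimmer, read 1749 in M2, 3389 with Lamtor1 loss and 1112 with Torin1, for which the log2 ratio was 1.11 with Lamtor1 loss and −0.32 with Torin1. The higher signal after Lamtor1 loss was thus seen with both probes and that after Torin1 with 1 of them.

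Gaa, the acid alpha-glucosidase that breaks down lysosomal glycogen, read 30507 in M2, 98606 in Lamtor1-deficient, 80761 in Torin1-treated and 6594 in M1 BMDMs. It was 3.59-fold higher after Lamtor1 loss and 3.34-fold higher after Torin1, and a second probe gave log2 ratios of 1.63 and 0.37. Sgsh, a neighbour (58.1 kb between the probes on chromosome 11), had log2 ratios of −0.10 and −0.98 in the same comparisons. Naglu, an N-acetylglucosaminidase of heparan sulfate breakdown, read 14014 in M2 and 41649 in Lamtor1-deficient cells, a log2 ratio of 1.72. Its signal in Torin1-treated cells, 19454, lay between them (0.81), and in M1 cells it was 7365. Naglu and Gaa were the 2 glycosidases past 2-fold, out of 12 with a median of 0.24. Man2b1, the lysosomal alpha-mannosidase, had the lowest ratio of this class, −0.58, with 114035 in M2 and 68595 in Lamtor1-deficient cells.

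Smpd1, the acid sphingomyelinase, read 8959 in M2, 17750 in Lamtor1-deficient, 9663 in Torin1-treated and 5862 in M1 BMDMs. It was 2.20-fold higher after Lamtor1 loss and was alone past 2-fold among the 5 lipid hydrolases. Its neighbour Tpp1, a tripeptidyl peptidase (187 kb between the probes on chromosome 7), had a log2 ratio of 0.12. Ctse, an aspartic protease of the endosomal pathway, read 25.3 in M2 and 116 in Lamtor1-deficient cells (log2 ratio 2.35, or 1.14 with normexp), not far from the lowest signal well above background on these arrays, 21.6 and 20.1. It was not well above background in Torin1-treated (16.9) or M1 BMDMs (4.22).

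The membrane proteins had ratios above 0 in 8 of 8 cases, as had 63.4% of all genes. Their median was 0.51, with a range from 0.31 to 1.41. With the brightest probe of each gene, all 8 stayed above 0 under each of the scalings and background corrections tried. A second Lamp2 probe, with 33833 in M2, gave 0.01. Mcoln1, the cation channel that releases calcium from the lysosome, was the member of this class past 2-fold, with 13025 in M2, 31164 in Lamtor1-deficient, 31955 in Torin1-treated and 12995 in M1 BMDMs. The unscaled signals of M1 and M2 were thus nearly equal, and those of the other 2 arrays were higher. Ctns, the cystine exporter, had a log2 ratio of 0.93, Cln3 0.67, Cd68 0.56, Cd63 0.47, Lamp1 0.45, Lamp2 0.45 and Scarb2, which also sorts an enzyme to the lysosome, 0.31.

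The cathepsins outside Ctsa and Ctse had log2 ratios between −0.12 (Ctsh) and 0.61 (Ctsd) after Lamtor1 loss. Ctsd, the main aspartic protease of the lysosome, read 287745 in M2 and 394095 in Lamtor1-deficient cells, and its second probe gave a larger ratio, 1.33. The cysteine cathepsins Ctsb, Ctsl and Ctss, each over 100000 in M2, stayed between −0.04 and 0.18. Among the sulfatases, Arsa, which desulfates sulfatide, was at 0.84 and Ids, which acts on dermatan and heparan sulfate, at −0.55. Npc2, the soluble cholesterol carrier, was at 0.88, and the saposin precursor Psap at 0.22. Gm2a, the activator of GM2 ganglioside breakdown, was lowest of all 47 at −0.68, with 13645 in M2 and 7691 in Lamtor1-deficient cells. The acid phosphatases Acp2 and Acp5 were at 0.03 and 0.23.

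**Figure D1:**
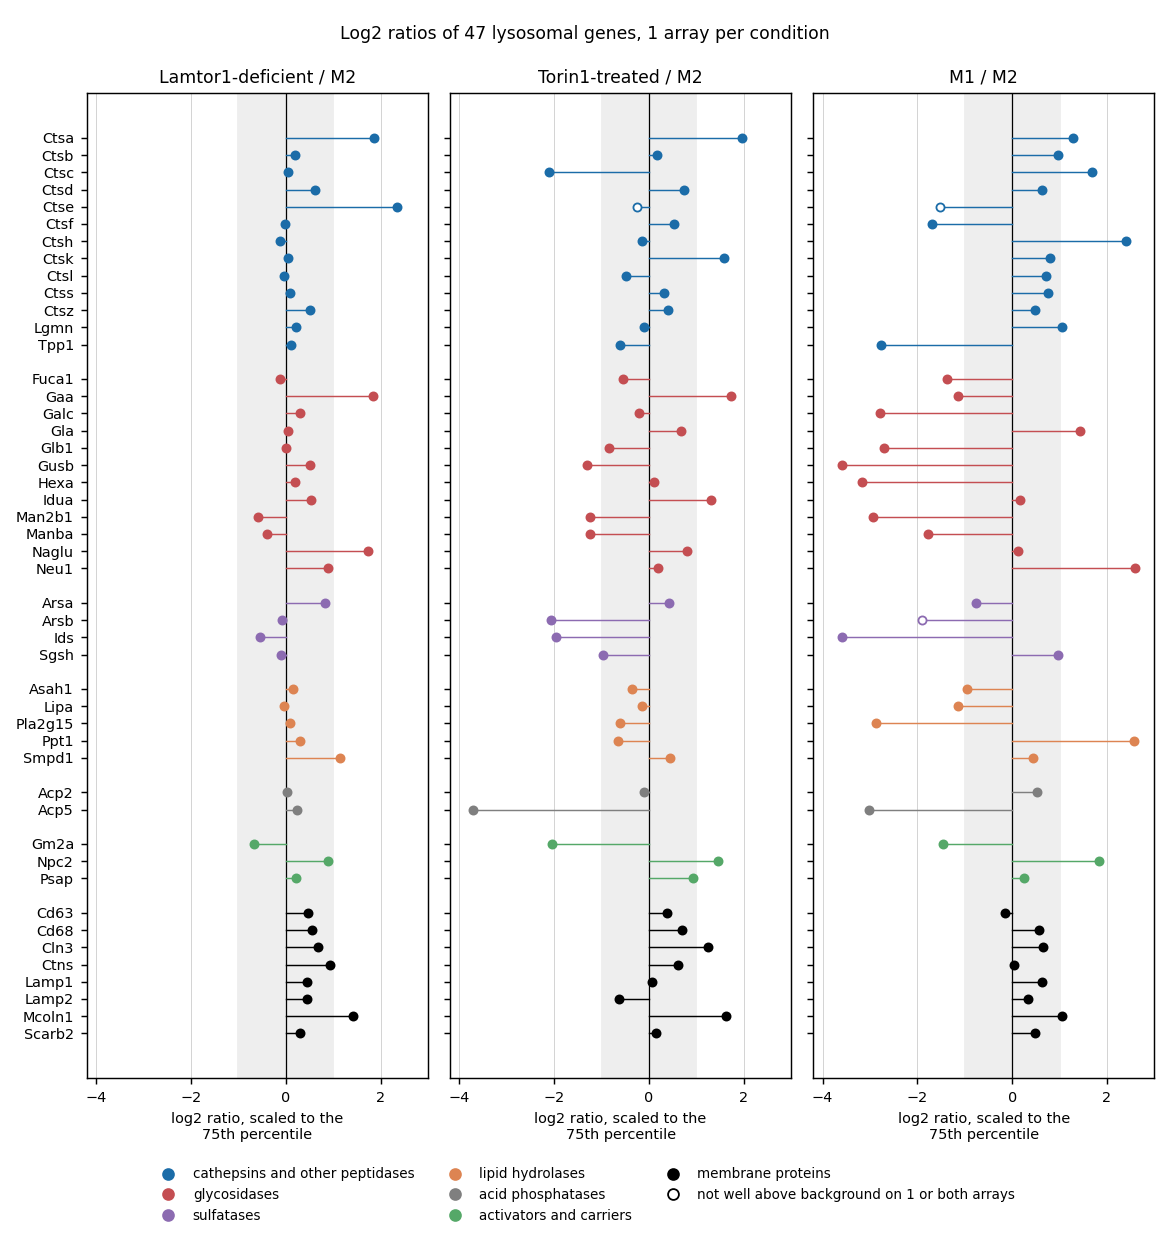
Log2 ratio (x axis) of the 47 members (rows, coloured by class) in Lamtor1-deficient, Torin1-treated and M1 BMDMs over the wild-type M2 array, 1 array per condition, with the grey band marking less than 2-fold and open symbols a probe not well above background on 1 or both arrays. After Lamtor1 loss 6 members lie right of the band and 0 left of it, after Torin1 7 and 8, and in M1 9 and 17.

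After Torin1 some members were higher and some lower, as were genes over the whole array. With IL-4 and Torin1, 7 members were 2-fold or more higher and 8 lower, where 14.2% of all genes were higher and 11.8% lower, or 11.9% and 13.2% of those well above background on both arrays. The higher ones were Ctsa, Gaa, Mcoln1, Ctsk, Npc2, Idua and Cln3, and the lower ones Acp5, Ctsc, Arsb, Gm2a, Ids, Gusb, Manba and Man2b1. In either direction 31.9% of members were past 2-fold, not far from the 26% of all genes and the 25.1% of those well above background. The members' median log2 ratio was 0.07, next to −0.06 over all genes. A shift to each array's median moved both alike, to −0.17 and −0.30, while quantile normalization put the members at −0.26 and all genes at −0.04.

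Acp5, the tartrate-resistant acid phosphatase, had the lowest ratio. Its probe (mm9 chr9:21931190-21931249) read 69852 in M2, 73902 in Lamtor1-deficient, 4208 in Torin1-treated and 4142 in M1 BMDMs, of which the first 2 and the last 2 were alike. It was 13.2-fold lower after Torin1 and 8.10-fold lower in M1, and near the M2 signal after Lamtor1 loss. Acp5 and Ctsk are also known as osteoclast genes. The summed normalized signal of 9 osteoclast markers was 185 in M2, 280 in Lamtor1-deficient, 264 in Torin1-treated and 22.4 in M1 BMDMs, and of these markers Calcr was not well above background on any array and Mmp9 not in M1. The sum followed Atp6v0d2, which read 103 in M2, 205 with Lamtor1 loss and 199.6 with Torin1. The list was split both after Lamtor1 loss and after Torin1. Dcstamp, Ocstamp, Tnfrsf11a and Mmp9 were 2-fold or more lower in both, and Itgb3 was 2-fold or more higher in both. Atp6v0d2, Nfatc1 and Oscar were within 2-fold, and Calcr is given no ratio. Dcstamp, for example, read 24.6 in M2 and 1.22 after Torin1. Their part in the Acp5 and Ctsk values was not tested.

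Ctsc, or dipeptidyl peptidase 1, which activates serine proteases of granules, read 16572 in M2, 15310 in Lamtor1-deficient, 3064 in Torin1-treated and 25704 in M1 BMDMs. It was 4.29-fold lower after Torin1 and was the cathepsin with the lowest ratio there (−2.10). The summed normalized signal of the 6 neutrophil markers on the array was 10.6 in M2, 0.773 after Lamtor1 loss and 0.442 after Torin1. Ltf, Ngp and Camp added most in M2, and Cxcr2 and Prtn3 were not well above background there. The log2 ratio of Ctsc after Lamtor1 loss was 0.04. The part of these markers in the Ctsc values was not tested.

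Gm2a read 13645 in M2, 7691 in Lamtor1-deficient, 2632 in Torin1-treated and 2392 in M1 BMDMs, and its log2 ratio after Torin1 was −2.04. The sulfatases Arsb and Ids were lower too. Ids read 1582 in M2, 975 in Lamtor1-deficient, 323 in Torin1-treated and 63.5 in M1 BMDMs, so that M2 was the highest and M1 the lowest of the 4. Arsb, which acts on dermatan and chondroitin sulfate, was dim, with 118 in M2, 101 with Lamtor1 loss and 22.4 with Torin1 (log2 ratio −2.07), and with a normexp background correction its ratio was −0.76. Sgsh, the heparan sulfamidase, was just short of 2-fold at −0.98, with 280256 in M2 and 112622 in Torin1-treated cells. Its second probe was past 2-fold (−1.50, from 6840 to 1911), and 3 sulfatases in place of 2 were lower after a median shift or quantile normalization.

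Among the glycosidases, Gusb, the beta-glucuronidase, was measured on 10 spots per array. Its processed signal was 67286 ± 3221 (SD over 10 spots) in M2, 86706 ± 2898 in Lamtor1-deficient, 21394 ± 1128 in Torin1-treated and 2680 ± 187 in M1 BMDMs. These SDs are of spots on 1 array each and before scaling. The log2 ratio was 0.52 after Lamtor1 loss, −1.32 after Torin1 and −3.59 in M1. Manba, the beta-mannosidase, read 9626 in M2, 6593 with Lamtor1 loss and 3198 with Torin1, and Man2b1 read 38290 after Torin1, with log2 ratios of −1.25 and −1.24. Idua, the alpha-iduronidase, went the other way, with 5842 in M2, 7559 with Lamtor1 loss and 11521 with Torin1, which was 2.49-fold higher after Torin1. The 12 glycosidases had 6 ratios above 0, or 4 after a median shift and 5 after quantile normalization.

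Ctsk, the collagen-degrading cathepsin K, read 14855 in M2, 13719 in Lamtor1-deficient, 35391 in Torin1-treated and 12364 in M1 BMDMs. It was 3.00-fold higher with Torin1 and the other 3 arrays were alike before scaling. The neighbouring Ctss (47 kb between the probes on chromosome 3) had a log2 ratio of 0.31. Npc2 read 100590 in M2, 166809 in Lamtor1-deficient, 219993 in Torin1-treated and 172419 in M1 BMDMs, a log2 ratio of 1.46 after Torin1. Cln3, a membrane protein mutated in juvenile Batten disease, read 16716 in M2, 24012 in Lamtor1-deficient, 31407 in Torin1-treated and 12653 in M1 BMDMs. Of its 3 probes, the brightest gave 1.24 after Torin1, the next 0.97 and the dimmest −0.12, and the first fell just short of 2-fold after a median shift. Psap was at 0.93, and Lamp2, the membrane protein required for chaperone-mediated autophagy in one of its isoforms, was the membrane protein below 0 (−0.64), while 7 of 8 were above 0, or 5 of 8 after a median shift or quantile normalization. Its signal was 37769 in M2 and 19272 in Torin1-treated cells. The 5 lipid hydrolases were all within 2-fold, from −0.64 for Ppt1, a palmitoyl-protein thioesterase, to 0.44 for Smpd1.

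**Figure D2:**
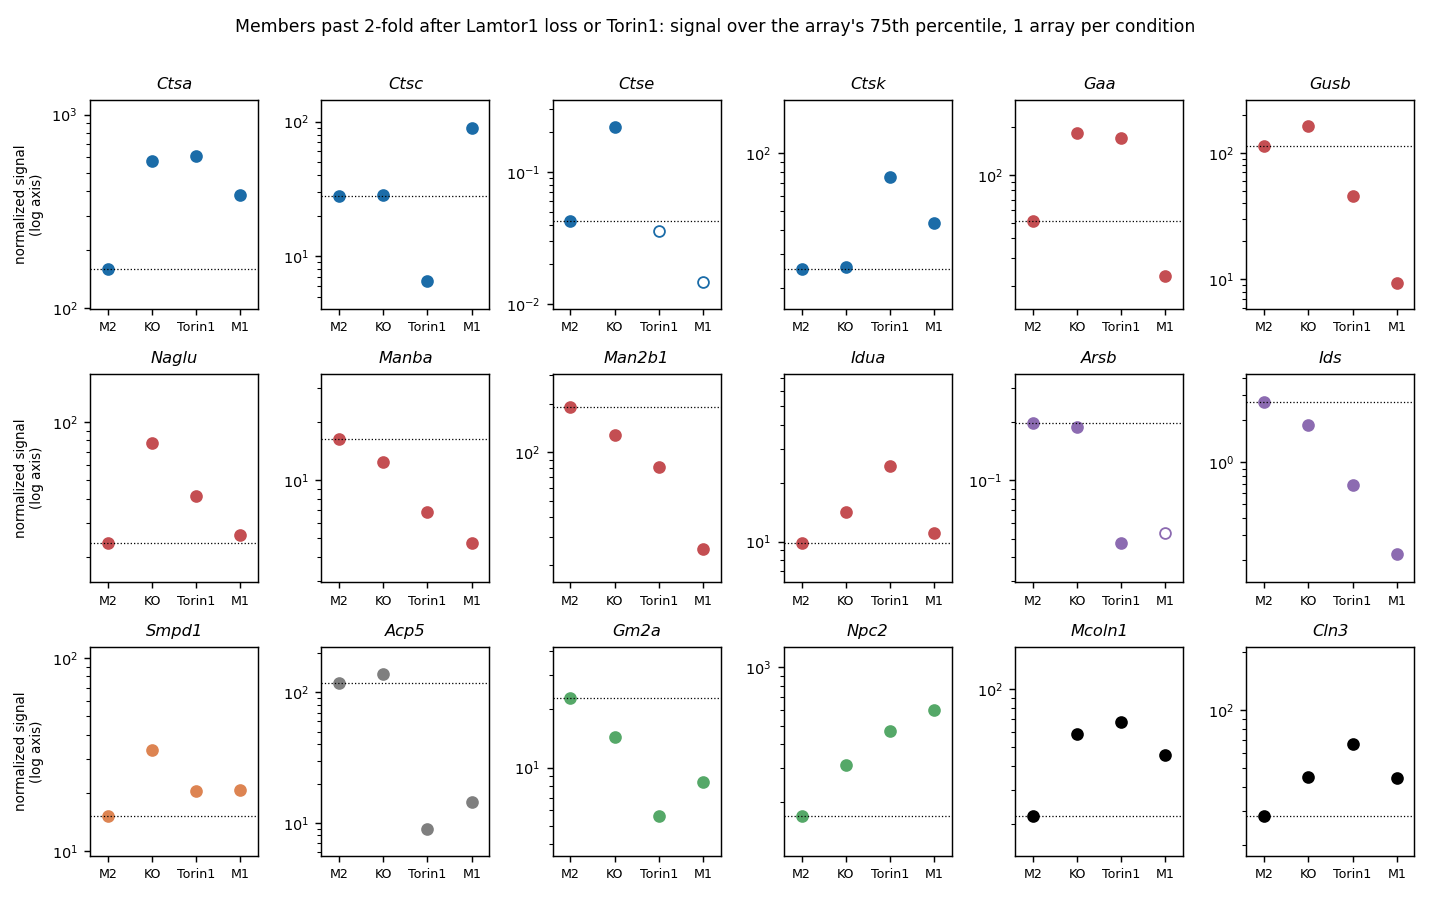
Normalized signal (y axis, log scale, processed signal over the 75th percentile of the array) on the M2, Lamtor1-deficient (KO), Torin1-treated and M1 arrays for the 18 members past 2-fold after Lamtor1 loss or Torin1, with the dotted line at the M2 value and open symbols where the probe was not well above background. Ctsa, Gaa and Mcoln1 lie above the line on both treated arrays, and Acp5, Ctsc and Arsb lie near it on the KO array and below it with Torin1.

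Both comparisons use the same M2 array, so that an error in its value moves both ratios, and the values are set side by side only. Ctsa stood at 1.86 after Lamtor1 loss and 1.95 after Torin1, Gaa at 1.84 and 1.74, and Mcoln1 at 1.41 and 1.63. Naglu stood at 1.72 and 0.81, and Smpd1 at 1.14 and 0.44. Acp5 stood at 0.23 and −3.72, Ctsc at 0.04 and −2.10, Gusb at 0.52 and −1.32, and Ctsk at 0.04 and 1.59. On the arrays themselves, Acp5 was 73902 against 4208 in Lamtor1-deficient and Torin1-treated cells.

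The promoter windows were set beside these ratios. The 14 members with CACGTG had a median log2 ratio of 0.53 after Lamtor1 loss, from −0.10 to 1.86, and 4 of them were 2-fold higher (Ctsa, Gaa, Naglu and Mcoln1). The 29 members without it had a median of 0.22, from −0.68 to 1.14, and 1 was 2-fold higher (Smpd1). After Torin1 the medians were 0.60 with the motif and −0.14 without it. All 8 members lower after Torin1 were among the 29 without it, while of the 7 higher members Ctsa, Gaa, Mcoln1 and Cln3 had it and Ctsk, Npc2 and Idua did not. That split depended on the scaling, since members with the motif were also 2-fold lower after a median shift (Glb1 −1.10 and Sgsh −1.23) and after quantile normalization (Sgsh −1.67 and Ctsl −1.10), and Cln3 was just short of 2-fold after the median shift. The split also depended on the probe. After Torin1 the second probes of Ctsa and Gaa gave −0.32 and 0.37, and the other probes of Cln3 0.97 and −0.12. That of Sgsh gave −1.50, and that of Idua, without the motif, 2.05. Those of Acp5 and Arsb stayed 2-fold lower (−3.84 and −1.38). The same split was not made over all genes, so whether it is particular to the members is not known. The ranges overlapped in every comparison. Several members with the motif were near the M2 signal after Lamtor1 loss, such as Gla (0.05), Ctsf (−0.02), Glb1 (0.00) and Sgsh (−0.10, or −0.77 with its second probe). After Torin1 Gla was at 0.68 and Ctsf at 0.53, while Glb1 was at −0.85 and Sgsh at −0.98. Whether the motif has a part in the values was not tested.

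**Figure D3:**
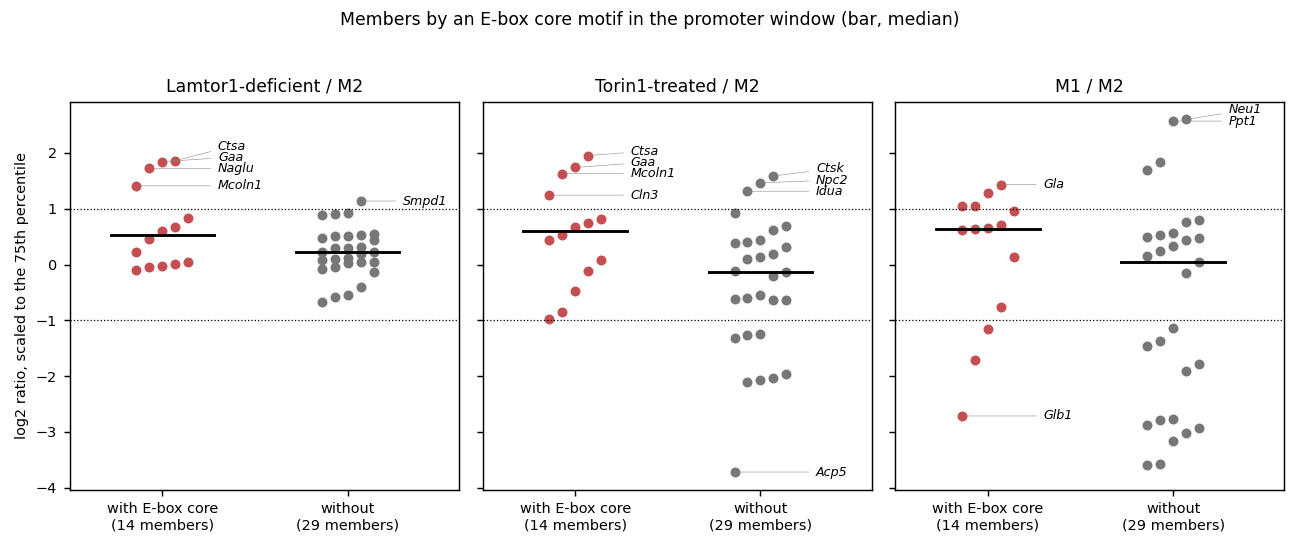
Log2 ratio (y axis) of the 14 members with the E-box core motif in a RefSeq promoter window and the 29 without it, in each comparison with M2. Each point is a gene by its brightest probe, the bar is the median and the dotted lines mark 2-fold. After Torin1 the 8 members below the lower line all lie in the group without the motif, where a median shift would add Glb1 (−1.10) and Sgsh (−1.23) of the other group, and the ranges of the groups overlap in each panel.

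The messages of the factors that bind this motif were measured as well. Tfeb, on the array as Tcfeb, read 2660 in M2, 2623 in Lamtor1-deficient, 3168 in Torin1-treated and 1157 in M1 BMDMs, so that its log2 ratio was 0.13 with Lamtor1 loss and 0.59 with Torin1. Mitf was past 2-fold lower after Lamtor1 loss, with 45748 in M2 and 11742 in Lamtor1-deficient cells (−1.81), and stood at −0.37 after Torin1. Tfe3 was at −0.70 and −0.81, and Tfec at −0.56 and −0.42. These are transcript levels and say nothing of the proteins or their place in the cell.

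The third comparison asked how M1 BMDMs differed from M2 BMDMs. In M1, 9 members were 2-fold or more higher and 17 lower, where 30.8% of all genes were higher and 19.1% lower, and 55.3% of members and 49.9% of all genes were past 2-fold in either direction. Among genes well above background on both arrays 25.3% were higher, 25.2% lower and 50.4% either, so that the members' total was near the background. This comparison depended most on the scaling. Division by the 75th percentile added 1.06 to every log2 ratio of M1 over M2, and a shift to each array's median added 0.23. The members' median was 0.25 with the first, when that of all genes was 0.76, and −0.58 with the second, when that of all genes was −0.07, so that both moved alike. Set against genes well above background on both arrays, the order turned, with 0.33 for the 45 members and 0.10 for all such genes. With the median shift 4 members were higher and 19 lower, where 15.6% and 31.7% of all genes were. With quantile normalization the counts were 5 and 18 (18.8% and 23.9% of all genes), and with normexp 7 and 16 (26.1% and 14.4%). Beside members that were 2-fold higher, the signals before scaling or the other scalings are given.

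Glycosidases were the class with the most members lower in M1, 8 of 12 under each scaling tried, with a median of −1.57 (−2.40 after a median shift). Gusb was 12.1-fold lower, as given above. Hexa, the alpha chain of beta-hexosaminidase, read 140007 in M2, 143654 in Lamtor1-deficient, 119173 in Torin1-treated and 7467 in M1 BMDMs, a log2 ratio of −3.17 in M1, and the 3 IL-4-stimulated cultures were alike. Man2b1 read 7164 in M1 (−2.93). Galc, the galactosylceramidase, read 1749 in M2 and 122 in M1 (−2.78), and Glb1, the beta-galactosidase, 16098 and 1179 (−2.71). Manba read 1347 in M1 (−1.78). Fuca1, the alpha-fucosidase, was at −1.37, with 40417 in M2 and 7506 in M1, and Gaa at −1.15.

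Neu1, the lysosomal neuraminidase, had the highest ratio of all members in M1. It read 25720 in M2, 43140 in Lamtor1-deficient, 23123 in Torin1-treated and 74877 in M1 BMDMs, so that it was higher in M1 before and after scaling (6.06-fold after it). Gla, the alpha-galactosidase A, read 127375 in M2 and 165284 in M1. Its unscaled ratio was 1.30 and its scaled log2 ratio 1.43, which fell short of 2-fold after a median shift (0.61) and after quantile normalization (0.80). Naglu and Idua were within 2-fold, at 0.13 and 0.16.

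Cathepsins lay on both sides in M1, 4 higher and 3 lower of 13, and their median of 0.77 became −0.06 after a median shift and −0.12 after quantile normalization. Ctsh, an aminopeptidase, read 122063 in M2, 100792 in Lamtor1-deficient, 86798 in Torin1-treated and 311083 in M1 BMDMs, and was 5.31-fold higher in M1 after scaling. Ctsc was 3.23-fold higher after scaling, with an unscaled ratio of 1.55 and a log2 ratio of 0.86 after a median shift. Lgmn, the asparaginyl endopeptidase, read 205416 in M2 and 203053 in M1, which were nearly equal. Its log2 ratio of 1.04 fell short of 2-fold with normexp (0.90), quantile normalization (0.25) and a median shift (0.21). Ctsb (0.96), Ctss (0.77), Ctsl (0.71), Ctsd (0.63) and Ctsz (0.49) had unscaled ratios from 0.67 to 0.93. Tpp1 read 9518 in M2 and 670.3 in M1 (−2.77), and Ctsf, a cysteine cathepsin, 547 and 80.8 (−1.70), lower in M1 before and after scaling. Ctsa disagreed between its probes in M1, with log2 ratios of 1.27 for the brighter and −1.17 for the dimmer one, both for the same RefSeq transcript. The brighter one had an unscaled ratio of 1.16 and fell short of 2-fold after a median shift. Ctse was below the detection limit in M1 and dim in M2, so no fold is given, although it is counted among the 17.

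Of the 5 lipid hydrolases, 1 was higher and 2 were lower in M1, or 3 with Asah1 after a median shift, quantile normalization or normexp. Ppt1 read 2211 in M2 and 6308 in M1 (2.57), while Pla2g15, the lysosomal phospholipase A2, read 25516 and 1673 (−2.87) and Lipa, the acid lipase that frees cholesterol from its esters, 45035 and 9838 (−1.14). Ids had a log2 ratio of −3.58 in M1, and Arsb, not well above background there, at least 3.02-fold lower, a call that ended with normexp (−0.19). The 2 probes of Sgsh, which lie next to each other (mm9 chr11:119204865-119204924 and chr11:119204805-119204864), gave 0.97 for the bright one, 280256 in M2 and 263194 in M1, and −3.39 for the dimmer one, 6840 and 312. Npc2 was 3.57-fold higher (1.84), with an unscaled ratio of 1.71, Gm2a was 2.74-fold lower and Acp5 was at −3.02. Of the membrane proteins, Mcoln1 was at 1.05, which fell below 2-fold with normexp, quantile normalization and a median shift, and the other 7 lay between −0.16 (Cd63) and 0.66 (Cln3). Their median of 0.52 became −0.30 after a median shift. Lamp2 had a second probe, listed for another of its transcripts, with 1.24 against 0.33.

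**Figure D4:**
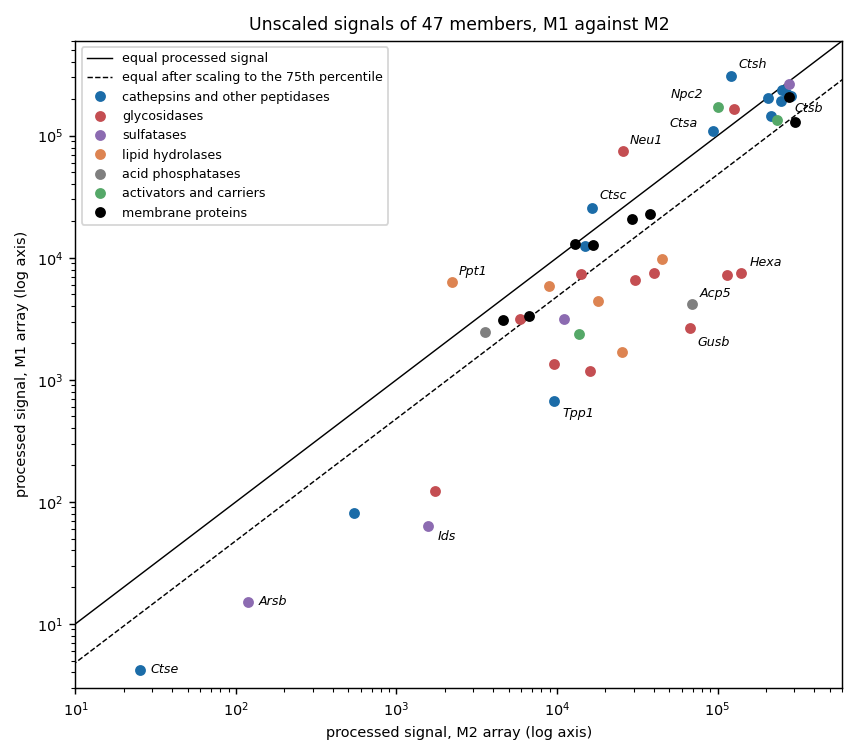
Processed signal of the 47 members on the M1 array (y axis) against the M2 array (x axis), both on log scales and before scaling, coloured by class, with a solid line at equal signals and a dashed line at equal normalized signals. Neu1, Ppt1 and Ctsh lie above both lines, Gusb, Hexa, Acp5 and Ids far below both, and of the 15 members of at least 100000 in M2, 9 lie within 1.5-fold of the solid line.

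Signal level went with these ratios. The 15 members with a processed signal of at least 100000 in M2 had a median log2 ratio of 0.71 in M1, and the 32 dimmer members one of −0.86. Over all 405 genes of at least 100000 in M2 the median was 0.07. Of the 15 bright members, 9 differed by less than 1.5-fold between the M1 and M2 arrays before scaling. No spot on any array was marked as saturated. The part of the signal level in the ratios was not tested.

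With the 75th percentile, 16 members were past 2-fold in none of the 3 comparisons, namely Ctsb, Ctsd, Ctsl, Ctss, Ctsz, Arsa, Sgsh, Asah1, Acp2, Psap, Lamp1, Lamp2, Cd63, Cd68, Scarb2 and Ctns. Of these, 5 passed it in 1 comparison under another scaling or background, namely Asah1 and Arsa in M1 after a median shift (−1.79 and −1.58), Asah1 there also with normexp and quantile normalization, Sgsh and Ctsl after Torin1 as given above, and Psap after Torin1 with the percentile over probes well above background (1.02). Cd63 and Scarb2 had log2 ratios within 0.5 of 0 in all 3 comparisons, but Cd63 was at −0.99 in M1 after a median shift, with 302340 in M2 and 129918 in M1. Asah1, the acid ceramidase, was at 0.15, −0.36 and −0.96 in the order Lamtor1 loss, Torin1 and M1, and Acp2 at 0.03, −0.11 and 0.53.

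**Figure D5:**
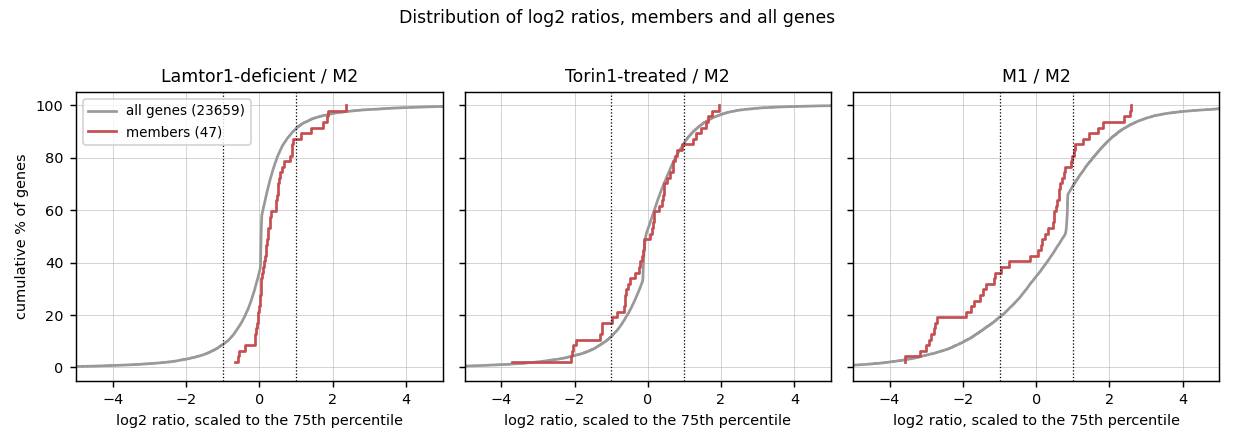
Cumulative share (y axis, %) of the 47 members (red) and of all 23659 genes (grey) against the log2 ratio (x axis) in each comparison with M2, with dotted lines at 2-fold. After Lamtor1 loss the members lie right of all genes over most of the range (median 0.22 against 0.04), after Torin1 the curves cross near 0, and in M1 the members lie left of all genes (0.25 against 0.76), an order that turns among genes well above background on both arrays (0.33 against 0.10).

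Other genes of the lysosomal pathway, from lists beside the members, were measured in the same way, 47 in all. After Lamtor1 loss 12 of these were 2-fold or more higher and 4 lower, after Torin1 9 and 3, and in M1 11 and 9. Over all genes the shares were 8.91% and 8.73%, 14.2% and 11.8%, and 30.8% and 19.1%. Of 16 calls after Lamtor1 loss 8 held under all 4 other scalings or backgrounds, of 12 after Torin1 6, and of 20 in M1 12. With a median shift these counts were 13 and 3, 4 and 4, and 4 and 16, beside 9.70% and 8.17%, 9.96% and 15.7%, and 15.6% and 31.7% of all genes, and with the percentile over probes well above background the first was 8 and 4. Of 15 other hydrolases, 5 were higher after Lamtor1 loss, among them Hyal1, a hyaluronidase (2.62), Dpp7, a dipeptidyl peptidase (1.40), the sulfatase Galns (1.35) and Ctsw (1.03), while Ctso was lower (−1.30). Ctsw fell short of 2-fold with normexp (0.56) and the percentile over probes well above background, and Ctso with normexp (−0.54). After Torin1 3 were higher, or 0 after a median shift, among them Hyal1 (1.07), which also fell short with quantile normalization and normexp (0.87), and Naaa, the amidase of N-acylethanolamines, was lower (−3.03, from 9277 in M2 to 901). In M1 Hyal1 read 3541 against 210 in M2 (5.14), Hyal2 was at 1.52 and Ctsw at 1.36, both short of 2-fold after a median shift (0.69 and 0.53), and among those lower Dpp7 was at −1.22 and Naaa at −1.05.

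All 6 measured genes of lysosomal delivery had ratios above 0 after Lamtor1 loss, as had 63.4% of all genes. Past 2-fold were Nagpa, which uncovers the mannose 6-phosphate tag (1.36, and 1.45 after Torin1), and Igf2r, its large receptor (2.14-fold, and just short of 2-fold after quantile normalization). In M1 Sort1, an alternative sorting receptor, was at least 65.2-fold lower, from 2554 in M2 to a signal not well above background. Gnptab was not matched on the array and was not analysed here. Of 13 other membrane proteins, 3 were higher after Lamtor1 loss, among them Laptm4a (1.31) and the cholesterol exporter Npc1 (1.01), and the amino acid exporter Slc36a1 was lower (−1.02). Both Npc1 and Slc36a1 were at the threshold and fell short of it under some scalings. After Torin1 the sialic acid exporter Slc17a5 (2.07), Laptm4a (1.46), Npc1 (1.19) and Abcb9 (1.09) were higher, the last 2 not after a median shift (0.95 and 0.85), and Slc36a1 lower (−1.04, or −0.98 with normexp and −0.95 with the percentile over probes well above background). In M1 Mfsd8 (3.19), Abcb9 (2.15), Laptm4a (1.65) and Cd164 (1.38) were higher, the last 2 not after a median shift (0.82 and 0.56), and Abca2 lower (−2.26).

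Of 9 inhibitors of cathepsins, Cst7, or cystatin F, had a ratio past 2-fold in every comparison, with 323 in M2, 608 in Lamtor1-deficient (1.06), 1653 in Torin1-treated (2.69) and 6418 in M1 BMDMs (5.37). After Lamtor1 loss it fell short of 2-fold with normexp (0.91) and with the percentile over probes well above background (0.99). Stfa1, dim in M2 (112), was at least 5.01-fold lower after Lamtor1 loss and at least 5.63-fold lower after Torin1, and at −1.13 in M1 (−0.14 with normexp). The dim Cst6 was at 1.55 after Lamtor1 loss, and just short of 2-fold with normexp. In M1 Stfa3 (1.71) and Cstb (1.05) were higher, neither after a median shift (0.88 and 0.22), and Stfa2 lower (−2.20). Of the 4 MiT/TFE messages, Mitf (−1.42) and Tfec (−2.98) were past 2-fold lower in M1.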

How the data were processed

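RNA of 4 cultures of BMDMs was labelled with Cy3 and hybridized to 4 Agilent mouse arrays, 1 per condition. The authors deposited spot intensities of Feature Extraction (version 10.7.3.1 in the file headers, 10.5.1.1 in the labels), with the array annotation on mm9. The processed intensity used here is background-subtracted within the array by that software and not normalized between arrays, which leaves the scaling open. A deposited series table holds the same intensities to within 0.497%. As in the study's methods, signals were given a raw threshold of 1.0 and divided by the array's 75th percentile, and calls were made at 2-fold. Control spots and 170 to 226 outlier spots per array were left out, spots of a probe were averaged, and 104 probes with only outlier spots on some array were dropped. Between 50.9% and 55.5% of probes were well above background, and the lowest such signal was 15.7 to 21.6. A gene was represented by its brightest probe by the mean of log2 signals over the 4 arrays. Where 1 of the 2 arrays compared was not well above background the fold is a bound set by that lowest signal, and where both were not no ratio is given. Precision is limited by the single array per condition.

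The members and lists were chosen with earlier results of these data known, so counts and medians describe them and no test was made. The text names every member, the targeted gene and pathway genes past 2-fold, some of which are counted but not reported here by name, with the 4 MiT/TFE messages. Technical SD was taken from probes spotted at least 8 times and well above background. Promoter windows and gene names came from RefSeq tables (GRCm38.p6), and proteins were not used here. Alternatives were a median shift, quantile normalization, the percentile over probes well above background, normexp (offset 50), a filter and a floor on dim probes, outlier spots kept, all probes of a gene, the series table, and 1.5-fold and 3-fold thresholds. The choice of probe by a mean without the log was added after the data had been seen. The procedure was tested on simulated data. The software was limma 3.58.1 in R 4.3.3 for normexp, and pandas 2.3.3, NumPy 2.4.6 and matplotlib 3.10.9 in Python 3.11.15 for the rest.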

Additional observations from a re-analysis of the deposited data

How the results depend on the processing

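No paired analysis was possible because each condition has 1 array, and no replicate could be left out. Of 47 member calls over the 3 comparisons, 41 stayed past 2-fold with a median shift, 43 with quantile normalization, 42 with normexp, 44 with the median over all probes and 46 with a floor on dim signals, and all that could be measured did so with the percentile over probes well above background, the filter on dim probes, outlier spots kept, the series table or the probe chosen without the log. The last setting took another probe for Lamp2 and brought the M1 count to 27. Ctse, not well above background in M1 and so without a measured ratio there, reversed to 0.63 with the floor and 0.28 with normexp, values set by those settings. The median log2 ratio of members after Lamtor1 loss was 0.0021 with quantile normalization. After Torin1 it was −0.26 with quantile normalization and −0.17 with a median shift. In M1 it was −0.16 with quantile normalization, −0.58 with a median shift and 0.13 with the median over all probes. At 1.5-fold 13 members were called after Lamtor1 loss (31.7% of all genes), 27 after Torin1 (44.6%) and 36 in M1 (78.3%), and at 3-fold 4 (9.15%), 9 (12.7%) and 17 (32.6%). The cause of these changes was not tested. Calls in M1 that fell below 2-fold with a median shift were Ctsa, Ctsc, Gla, Lgmn and Mcoln1, and after Torin1 Cln3. Ratios of probes not well above background have a technical SD of 0.27 to 0.43 on the log2 scale, which limits Ctse and Arsb.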

Other observations

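Markers of other cell types differed between the arrays, and their part in the members' values was not tested. The summed normalized signal of 6 fibroblast markers was 43.5 in M2, 57.0 in Lamtor1-deficient, 15.5 in Torin1-treated and 16.3 in M1 BMDMs, with Col1a2 the brightest in the first 3. After Lamtor1 loss Thy1 (3.98-fold), Dcn (3.77-fold) and Pdgfra (2.74-fold) were 2-fold or more higher and 0 lower. After Torin1 0 were higher and 3 lower. In M1 Dcn was 5.88-fold higher and 4 were lower, among them Pdgfra, which was not well above background there. That of 6 lymphocyte markers was between 2.02 and 4.10, with Cd3e the brightest on every array. Elane and Ly6g of the neutrophil list were not analysed here. Several members with more than 1 measured probe gave ratios that differed by more than 2-fold between probes, the widest being Sgsh in M1 (0.97 and −3.39), Ctsa in M1 (1.27 and −1.17), Ctsa after Torin1 (1.95 and −0.32) and Cln3 in M1 (0.77 and −1.49).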
